A study of Mus musculus with 10 samples.

Results

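The 10 genes described here, Ptprc, Cd48, Cd53, Laptm5, Coro1a, Lcp1, Vav1, Arhgdib, Inpp5d and Hcls1, are transcribed in nearly every type of white blood cell and in few other cells. They were chosen by name and not by a methylation threshold, but with earlier results of these data known. Their data are the 242 windows of the genome-wide methylation table, out of 446336, that overlap one of the RefSeq gene spans of GRCm38 extended by 5 kb on each side. Lung DNA of 8-week-old female BALB/c mice was profiled, with 1 mouse per library. The 3 saline mice were the controls. The 3 OVA-induced mice were sensitized with 50 µg of ovalbumin in alum by intraperitoneal injection and challenged with 25 µg intranasally, and the 4 DSE-treated mice received in addition 200 mg/kg of an ethanol extract of Descurainia sophia seeds by mouth. The sample titles call the last group Herb. No group carries a transgene, and the tissue is whole lung, so every value is an average over all cells of the tissue. Methylation gives no direct check of the labelled tissue.

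Leukocytes, the white blood cells, all descend from blood-forming stem cells and share a set of surface receptors, actin regulators and signalling enzymes that are used in almost all of them. In allergic airway inflammation, eosinophils, lymphocytes and macrophages enter the lung around airways and vessels. DNA methylation is the addition of a methyl group to the cytosine of CpG dinucleotides, and the promoter of a gene that is active in a cell type usually carries less of it there than in cell types where the gene is silent. Promoters with many CpGs, the CpG islands, are mostly unmethylated whatever the activity of the gene.

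The promoters differed in how many CpGs they hold. RefSeq sequences of 300 bases, from 250 before to 50 after a start site, were found for all 10 genes, 15 sequences in all because some genes have several start sites. They held 2 to 19 CpGs with a median of 6, beside a median of 7 over the 32851 RefSeq promoters. The 4 sequences printed here belong to the gene with the lowest promoter methylation in saline mice (Lcp1), to the gene with the highest (Laptm5), and to the genes with the largest difference in OVA vs. saline (Ptprc) and in DSE vs. OVA (Hcls1). For Ptprc and Lcp1 the more upstream start site is shown. CpGs, the sites that the assay reads, are in capitals, and the sequences run 5′ to 3′ on the strand of the gene in GRCm38.p6.
Lcp1, chr14:75130873-75131172, plus strand: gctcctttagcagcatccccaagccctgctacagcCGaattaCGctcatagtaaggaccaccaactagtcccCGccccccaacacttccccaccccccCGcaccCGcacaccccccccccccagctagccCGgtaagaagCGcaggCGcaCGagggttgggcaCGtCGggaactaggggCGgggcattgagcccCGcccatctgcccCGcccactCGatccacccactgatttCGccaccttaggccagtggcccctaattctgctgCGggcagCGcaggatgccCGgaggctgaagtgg
Laptm5, chr4:130913066-130913365, plus strand: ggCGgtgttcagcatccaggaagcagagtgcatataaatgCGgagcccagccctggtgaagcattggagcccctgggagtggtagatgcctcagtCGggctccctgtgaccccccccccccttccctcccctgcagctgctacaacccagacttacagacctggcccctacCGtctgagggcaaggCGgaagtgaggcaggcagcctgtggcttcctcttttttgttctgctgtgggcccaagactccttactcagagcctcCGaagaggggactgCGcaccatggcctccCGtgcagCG
Ptprc, chr1:138175256-138175555, minus strand: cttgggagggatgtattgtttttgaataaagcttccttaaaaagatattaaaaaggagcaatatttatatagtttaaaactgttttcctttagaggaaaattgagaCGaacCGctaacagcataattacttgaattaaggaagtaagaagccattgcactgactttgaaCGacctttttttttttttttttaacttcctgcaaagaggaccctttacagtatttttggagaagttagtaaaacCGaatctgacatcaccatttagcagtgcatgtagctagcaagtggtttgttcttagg
Hcls1, chr16:36934733-36935032, plus strand: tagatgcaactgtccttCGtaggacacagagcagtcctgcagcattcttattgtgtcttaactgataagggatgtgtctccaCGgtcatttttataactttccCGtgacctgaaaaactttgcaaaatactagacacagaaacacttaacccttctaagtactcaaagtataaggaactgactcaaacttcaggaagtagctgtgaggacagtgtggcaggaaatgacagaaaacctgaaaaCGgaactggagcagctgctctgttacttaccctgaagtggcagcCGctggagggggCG
The Lcp1 promoter held 19 CpGs, Laptm5 9, Hcls1 6 and Ptprc 4. The letters AGGAAGT, a core sequence bound by the ETS family of transcription factors, occurred on either strand in 7 of the 15 sequences, from 6 genes (Ptprc, Cd53, Vav1, Arhgdib, Inpp5d and Hcls1), and in 9.35% of all RefSeq promoters. The 2 Ptprc sequences overlap and count separately. The letters TGTGGT, a core sequence of the RUNX family, occurred in 3 of the 15 sequences (Cd48, Cd53 and Arhgdib) and in 16.8% of all promoters. In no sequence did a match of one motif overlap a match of the other.

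Coverage of the genes was uneven. Inpp5d had 50 windows, Lcp1 41, Vav1 31, Coro1a 24, Ptprc 22, Laptm5 20, Cd48 19, Arhgdib 17, Hcls1 13 and Cd53 only 5. A promoter window overlaps the 1000 bp on either side of a start site. By this definition 52 windows were promoter windows, 139 other windows lay in the genes, and 51 in the flanks. Another annotated gene is touched by 32 of the 242 windows, and 11 lie within 1000 bp of the start site of another gene. The median was 453 CpG calls per mouse and window, at which a methylation of 49.9% has a 95% Wilson interval of 45.3% to 54.5%. For the gene values below, the calls of all promoter windows of a gene were added, 642 to 9174 per mouse. Such intervals take the calls as independent and leave out the spread between mice. Several calls can come from the same molecule, so the intervals can be too narrow even for counting error. Over the whole table the libraries held 306656737 to 410836272 calls. Pooled methylation was 36.0% to 36.8% in the saline, 35.5% to 37.3% in the OVA-induced and 38.5% to 39.8% in the DSE-treated mice, so the DSE-treated mice lay above all others. The DSE-treated mice were also highest at the median promoter of all 19140 genes, with 9.27% for saline, 9.02% for OVA-induced and 11.2% for DSE-treated mice.

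OVA vs. saline asks how lung methylation differs after allergen exposure. Promoter methylation was lower in the OVA-induced mice at 6 of the 10 genes, Ptprc, Cd48, Cd53, Laptm5, Vav1 and Hcls1, with differences of -16.7 to -12.2 percentage points (limma on M-values over mice, adjusted p = 0.00957 to 0.0245 over all genes). None was higher. By the same test 2.76% of all gene promoters were lower and 3.26% were higher. Most gene promoters are nearly unmethylated and cannot fall by much. Among the 3370 promoters at 30 to 80% methylation in saline mice, where 8 of the 10 genes lie, 5.37% were lower. The mean over the 10 genes differed by -9.99 points from saline, beside 0.214 points over all genes. In whole lung, a different share of cells of a type and a different methylation within cells cannot be told apart.

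**Figure D1:**
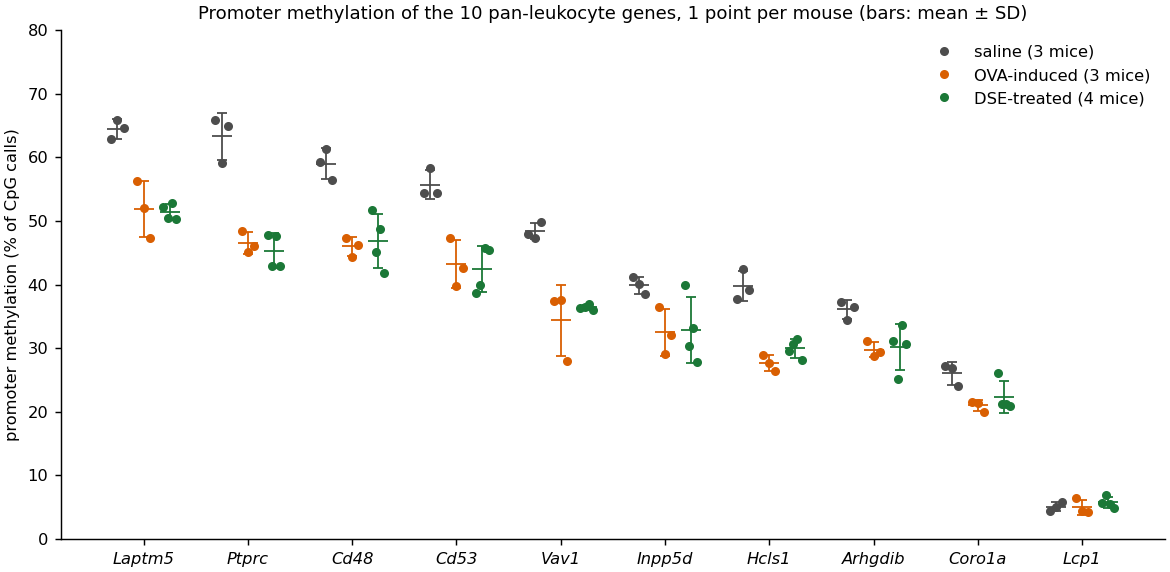
Promoter methylation in percent of CpG calls (vertical axis) of the 10 genes, ordered by their level in saline mice; each point is 1 mouse, and bars give the mean ± SD of saline (n = 3), OVA-induced (n = 3) and DSE-treated (n = 4) mice. The saline mice lie above all others at Ptprc, Cd48, Cd53, Laptm5, Vav1, Hcls1 and Arhgdib, while Lcp1 lies between 4.25% and 6.92% in every mouse.

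Among the surface proteins, Ptprc had the largest difference. It encodes CD45, the receptor-type tyrosine phosphatase by which leukocytes are usually recognised. Its promoter methylation was 65.8%, 59.1% and 65.0% in the saline mice and 48.5%, 45.1% and 46.1% in the OVA-induced mice. The groups did not overlap, and the means of 63.3% ± 3.66 (SD, n = 3) and 46.6% ± 1.75 (SD, n = 3) differed by -16.7 points with a standard error of 2.34 (limma adjusted p = 0.00957; exact two-sided permutation p = 0.1, and no smaller value is possible with 3 mice in each group). Cd48, a lipid-anchored adhesion receptor of the SLAM family, was at 59.3%, 61.3% and 56.4% in saline and at 47.4%, 44.4% and 46.2% in OVA-induced mice. Here too every OVA-induced mouse lay below every saline mouse (limma adjusted p = 0.0185). Cd53, a tetraspanin that organises receptors in the leukocyte membrane, was at 54.5%, 58.3% and 54.4% in saline and at 47.3%, 39.7% and 42.7% in OVA-induced mice (limma adjusted p = 0.0245). The Cd53 value rests on 3 windows and 642 to 1170 calls per mouse, the fewest of the 10 genes.

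Laptm5 encodes a lysosomal membrane protein that limits antigen receptors at the surface of lymphocytes. It had the highest promoter methylation of the 10 genes, with 62.9%, 65.9% and 64.7% in the saline and 56.3%, 52.1% and 47.4% in the OVA-induced mice. The groups were separate, although the OVA-induced mice spread over a wider range (51.9% ± 4.44, SD, n = 3; limma adjusted p = 0.0152). Windows of the Laptm5 promoter also overlap the predicted gene Gm38599.

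Among the signalling genes, Vav1 and Hcls1 changed. Vav1, a signalling protein that acts below antigen receptors, was at 48.02%, 47.4% and 49.8% in saline mice and at 37.5%, 37.6% and 28.0% in OVA-induced mice. All OVA-induced mice were below the saline mice, with replicate 3 furthest away (limma adjusted p = 0.0161). Hcls1, a relative of cortactin that couples receptor signals to actin, was at 37.8%, 42.5% and 39.2% in saline and at 28.9%, 27.6% and 26.4% in OVA-induced mice (limma adjusted p = 0.00964). Arhgdib, a cytoplasmic regulator of signalling, and Inpp5d, the lipid phosphatase SHIP1 that opposes PI3-kinase, had differences that did not pass the test. Arhgdib averaged 36.1% ± 1.43 in saline and 29.8% ± 1.23 in OVA-induced mice (SD, n = 3 each; limma adjusted p = 0.109). Inpp5d averaged 39.9% ± 1.32 and 32.5% ± 3.75 (SD, n = 3 each; limma adjusted p = 0.152). In both genes every OVA-induced mouse was still below every saline mouse.

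The actin regulators Coro1a and Lcp1 had the lowest promoter methylation, and neither passed the test. Coro1a, a coronin that binds filamentous actin, averaged 26.1% ± 1.78 in saline and 21.0% ± 0.891 in OVA-induced mice (SD, n = 3 each; limma adjusted p = 0.0908). Lcp1, the actin-bundling protein L-plastin, averaged 5.09% ± 0.737 and 5.01% ± 1.17 (SD, n = 3 each; limma adjusted p = 0.918). Its printed promoter holds the most CpGs of the 4. At 9 of the 10 genes the OVA-induced mice all lay below the saline mice, where 15.8% of all gene promoters do so. Lcp1 was the gene with overlapping groups. For Coro1a the separation is that of the summed calls, and the median difference of its 7 promoter windows was -0.278 points.

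**Figure D2:**
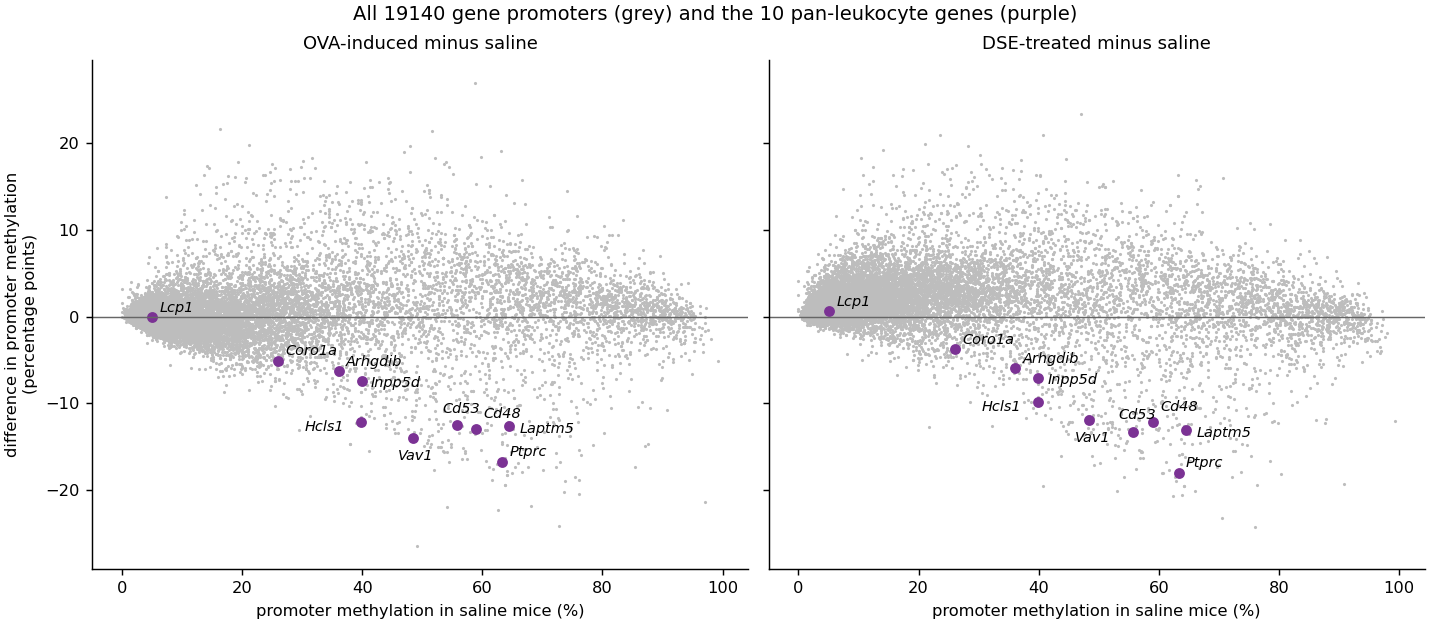
Difference in promoter methylation in percentage points (vertical axis) against the level in saline mice in percent (horizontal axis) for 19140 gene promoters (grey points) and the 10 genes (purple, named), OVA-induced minus saline on the left and DSE-treated minus saline on the right. The 8 genes at 30% or more in saline lie below 0 on both sides, with Ptprc lowest among the 10 at -16.7 and -18.0 points, and Lcp1 lies near 0.

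DSE vs. OVA asks what the extract changed in allergen-exposed mice. No promoter of the 10 genes differed by limma on M-values, and none reached an unadjusted limma p under 0.05. Over all gene promoters, 22.9% were higher and 0.475% lower by the adjusted test, and 33.9% were higher and 1.4% lower by the unadjusted one. Among promoters at 30 to 80% in saline mice, where 8 of the 10 genes lie, only 3.92% were higher and 1.63% lower by the adjusted test. A count of 0 among the 10 genes is near those shares. At none of the 10 genes were the groups apart, where all DSE-treated mice lay above the OVA-induced mice at 30.3% of gene promoters and below them at 1.36%. These shares of separate groups were not counted for promoters at 30 to 80% in saline mice. The differences of the 10 genes ran from -1.26 points at Ptprc to 2.33 at Hcls1, with standard errors of 0.797 to 3.38 points. Hcls1 was at 29.6%, 30.6%, 31.5% and 28.1% in the DSE-treated mice. Only the lowest of them fell within the OVA-induced range of 26.4% to 28.9% (exact permutation p = 0.114, where 0.0571 is the lowest value that 3 and 4 mice can give). Ptprc was at 47.8%, 42.9%, 47.6% and 42.9% in DSE-treated mice, which overlaps the OVA-induced values (exact permutation p = 0.457). The mean over the 10 genes differed by 0.554 points between DSE-treated and OVA-induced mice, beside 1.22 over all genes.

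DSE vs. saline uses the same saline mice as OVA vs. saline, so the comparisons are not independent. Promoter methylation was lower in the DSE-treated mice at 6 of the 10 genes, Ptprc, Cd48, Cd53, Laptm5, Vav1 and Hcls1, with differences of -18.0 to -9.84 points (limma adjusted p = 0.00139 to 0.00694), where 2.29% of all gene promoters were lower and 24.3% higher. Among promoters at 30 to 80% in saline mice, 9.02% were lower. Ptprc averaged 45.3% ± 2.76 (SD, n = 4), a difference of -18.0 points from saline, and Cd48 averaged 46.9% ± 4.29 (SD, n = 4), a difference of -12.1 points. Vav1 lay between 36.0% and 36.9% in all DSE-treated mice, the narrowest range among the 6 genes. At these genes and at Arhgdib the DSE-treated mice all lay below the saline mice, as they do at 3.64% of all gene promoters. Inpp5d had the widest spread in this group, with 39.9%, 30.3%, 33.2% and 27.8% (limma adjusted p = 0.0771). Arhgdib differed by -5.94 points (limma adjusted p = 0.0529) and Coro1a by -3.74 points (limma adjusted p = 0.0973).

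The other groups of genes were set beside these by their own lists. Of 26 measured promoters of further leukocyte genes, 13 were lower in the OVA-induced mice and none higher, with a median difference of -9.03 points, beside -12.3 over the 10 genes and -0.0485 over all genes. The 4 largest differences were at Lcp2, an adaptor of T cell receptor signalling (-22.2 points), Dock2, a Rac activator of lymphocyte migration (-18.8), Nckap1l, a subunit of the actin-regulating WAVE complex (-17.9), and Evi2b (-16.4). These leukocyte promoters were also methylated at a median of 48.2% in saline mice, close to the 44.2% of the 10 genes. Of 11 lung epithelial promoters none passed the test, with differences between -1.34 and 5.90 points. Of 10 endothelial promoters 1 was higher, and of 10 mesenchymal promoters 2 were higher, and none of either list was lower. The epithelial, endothelial and mesenchymal promoters had medians of 12.2% to 13.4% in saline mice, so few of them could fall by as much as the leukocyte genes. In DSE vs. OVA the further leukocyte promoters had a median difference of 0.118 points, with 1 of 26 higher and none lower. In DSE vs. saline 18 of the 26 were lower and 1 higher. There 3 of 11 epithelial, 5 of 10 endothelial and 6 of 10 mesenchymal promoters were higher and none lower. Of all gene promoters 24.3% were higher and 2.29% lower in that comparison. The part of other cell types in these values was not tested.

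**Figure D3:**
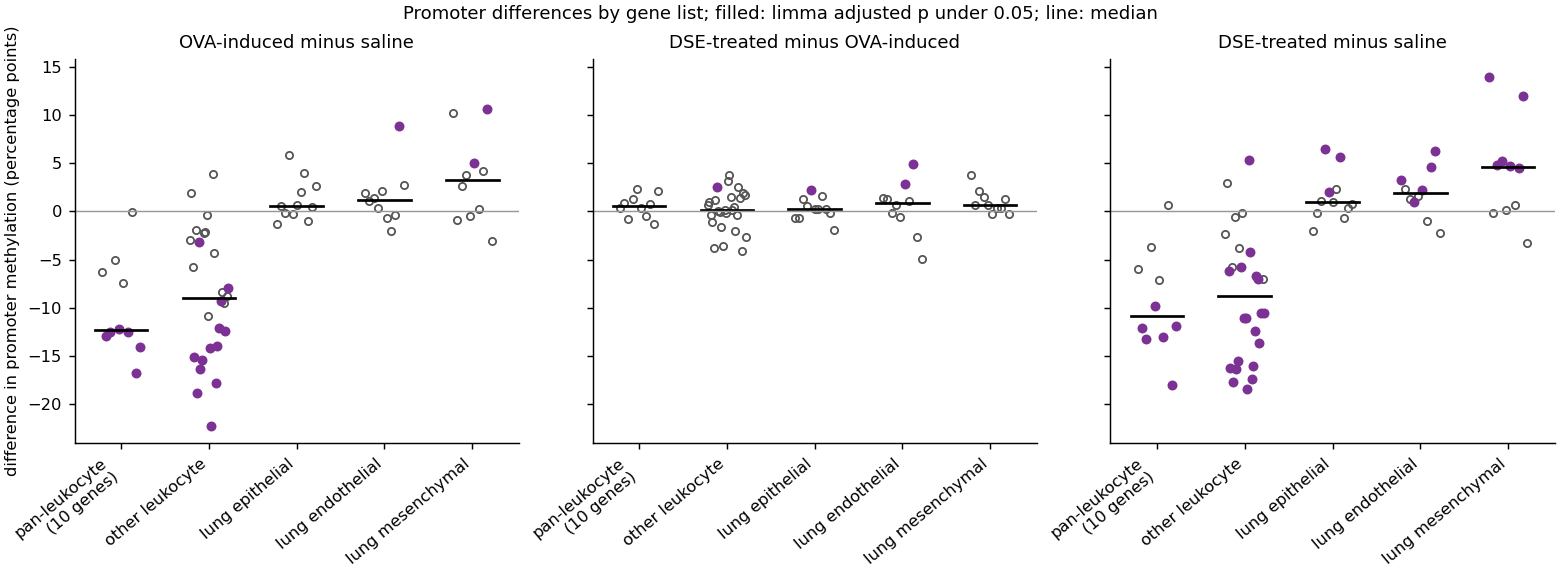
Differences in promoter methylation in percentage points (vertical axis) for the 10 genes and for 4 lists of marker genes (horizontal axis) in each comparison; each point is a gene, filled where the limma adjusted p is under 0.05, and lines are medians. In OVA vs. saline the medians are -12.3 and -9.03 points for the leukocyte lists and 0.544 to 3.23 for the others; in DSE vs. OVA all 5 medians lie between 0.118 and 0.856.

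The single windows locate these differences. A window was counted as a differentially methylated region (DMR) at an adjusted p under 0.01 in a likelihood ratio test of the pooled calls and a difference of at least 10 points. This test takes every call as independent and ignores the spread between mice, so counts by limma over mice are given as well. In OVA vs. saline 56 of the 238 tested windows were hypo methylated and 8 hyper methylated, where 2.56% and 4.75% of all windows were. By limma 32 and 2 passed, where 1.18% and 1.76% of all windows did. The hypo methylated windows formed 24 runs of overlapping windows of up to 3000 bp. The 1 hypo methylated window of Coro1a did not pass limma. An F test that allows for overdispersion of the calls, adjusted over all windows, called 0 windows of the genes and 0 of the whole table. At an unadjusted F test p under 0.05 and at least 10 points, 49 windows of the genes were hypo and 6 hyper methylated. The share of all windows at that unadjusted threshold was not counted, so these counts have no background beside them. In DSE vs. OVA 2 windows were hypo and 3 hyper methylated, where 0.725% and 0.898% of all windows were, so the shares of 0.84% and 1.26% were near the background. By limma 1 hyper methylated window passed, where 0.158% of all windows did, and 0 hypo methylated ones, where 0.0548% did. At an unadjusted limma p under 0.05 there were 4 hypo methylated ones, again without a counted share of all windows. In DSE vs. saline 53 of 241 windows were hypo and 10 hyper methylated, where 3.07% and 4.95% of all windows were, and 42 and 1 passed limma, where 1.94% and 2.76% of all windows did.

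Hypo methylated windows of OVA vs. saline were densest at the start of the genes. Of 51 tested promoter windows 23 were hypo and 1 was hyper methylated, of 136 other windows in the genes 28 were hypo and 7 hyper methylated, and of 51 flank windows 5 were hypo methylated. All promoter windows of the table together were hypo methylated in 1.44% and hyper methylated in 2.19%, and all windows of any kind in 2.56% and 4.75%. Of the 33 promoter windows of the 10 genes at 30 to 80% in saline mice, 23 were hypo methylated (69.7%), where 5.18% of all such promoter windows were. In DSE vs. saline 20 of the 51 promoter windows were hypo methylated and none hyper methylated, where 1.64% and 2.71% of all promoter windows were, and all 20 were among the 33 at 30 to 80%, where 5.96% of such windows were hypo methylated. In OVA vs. saline none of the 23 windows past the 3′ end of a gene was hypo methylated, which is near the 2.56% of all windows. The level in saline mice set a limit: 23 windows under 10% could not fall by 10 points, and 52 of the 56 hypo methylated windows lay between 30% and 80%.

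**Figure D4:**
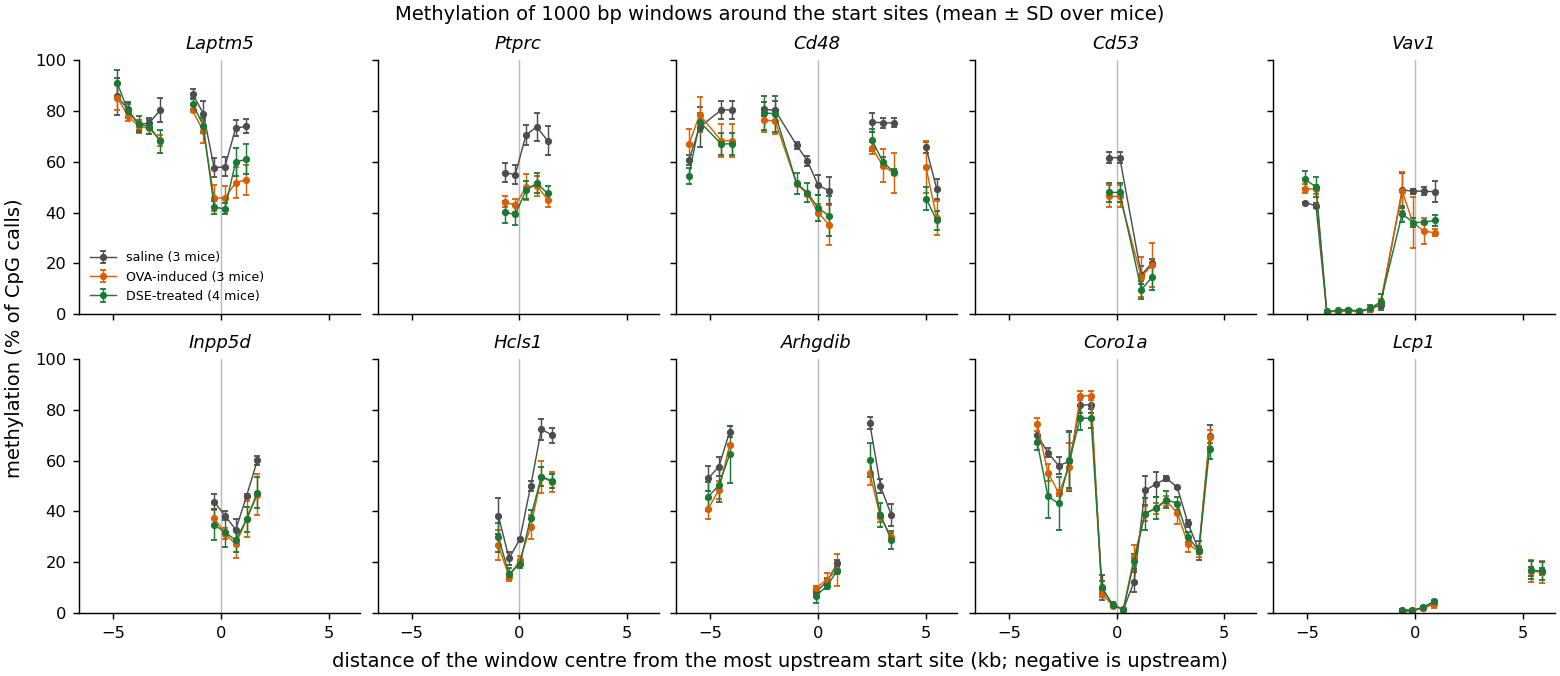
Methylation in percent of CpG calls (vertical axis) of windows of 1000 bp by the distance of their centre from the most upstream start site in kb (horizontal axis), as mean ± SD over the saline, OVA-induced and DSE-treated mice; lines join windows that overlap or touch. At Ptprc, Laptm5, Hcls1 and Vav1 the saline line runs above both others just downstream of the start site, and at Lcp1 all 3 lines run near 0 around the start site.

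The longest run belonged to Ptprc, where 5 windows at chr1:138173501-138176500, from upstream of exon 1 into intron 2, were hypo methylated. The window with the largest difference in OVA vs. saline, chr1:138174001-138175000 in intron 2 and 625 bp downstream of the nearer start site, was at 72.8%, 68.9% and 79.5% in saline, at 53.6%, 46.2% and 52.0% in OVA-induced and at 51.5%, 51.1%, 56.5% and 46.9% in DSE-treated mice. The saline mice stood apart from all other mice, with pooled differences of -23.2 points in OVA-induced (limma adjusted p = 0.0223 over all windows) and -22.4 points in DSE-treated mice (limma adjusted p = 0.0114). The OVA-induced and DSE-treated mice overlapped and differed by 0.830 points. The window nearest the start site, chr1:138174501-138175500, which holds most of the printed Ptprc sequence, had a difference of -20.8 points in OVA vs. saline (limma adjusted p = 0.0227).

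In OVA vs. saline Laptm5 and Hcls1 showed the same shape, with larger differences just inside the gene than at the start site itself. In Laptm5, chr4:130913501-130914500 in intron 1 was at 76.3%, 73.6% and 69.9% in saline and at 54.8%, 55.9% and 44.7% in OVA-induced mice (-21.2 points in pooled calls, limma adjusted p = 0.0262). Its DSE-treated mice, at 57.9%, 65.5%, 62.9% and 53.3%, lay below the saline mice and in part above the OVA-induced ones (DSE vs. OVA 7.94 points, limma adjusted p = 0.537). The window nearest the Laptm5 start site, chr4:130913001-130914000, differed by -12.2 points in OVA vs. saline (limma adjusted p = 0.0592). In DSE vs. saline the order was reversed at Laptm5, with -16.3 points in this window and -13.3 in the intron 1 window. In Hcls1, chr16:36935501-36936500 in intron 1 was at 69.0%, 77.0% and 70.99% in saline and at 60.6%, 48.5% and 51.8% in OVA-induced mice (-19.4 points, limma adjusted p = 0.0305). The window over the Hcls1 start site, chr16:36934501-36935500, was at 29.6%, 28.9% and 28.8% in saline and at 21.9%, 21.6% and 19.2% in OVA-induced mice (-8.15 points, limma adjusted p = 0.0394), so that it passed limma but not the limit of 10 points.

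In OVA vs. saline Cd48 was hypo methylated over a broad stretch, with runs centred 3991 to 4491 bp upstream, around the start site and 3009 to 6009 bp downstream of it. The upstream run and the run centred 5509 to 6009 bp downstream had no window that passed limma in this comparison. In intron 1, chr1:171685001-171686000 was at 75.7%, 76.8% and 73.3% in saline, at 64.2%, 54.0% and 48.8% in OVA-induced and at 54.1%, 56.5%, 57.0% and 56.0% in DSE-treated mice. Both other groups lay below saline, with differences of -19.3 and -19.2 points (limma adjusted p = 0.0237 and 0.0121). The window nearest the start site, chr1:171681501-171682500, differed by -10.4 points in OVA vs. saline (limma adjusted p = 0.118). At Cd53 the window nearest the start site, chr3:106789501-106790500, differed by -15.2 points (limma adjusted p = 0.0348). At Vav1 it was chr17:57278501-57279500, with -11.9 points (limma adjusted p = 0.134), with 40.9%, 42.7% and 24.6% in the OVA-induced mice, the last from replicate 3. At Inpp5d, chr1:87620001-87621000 differed by -7.24 points (limma adjusted p = 0.254).

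The start-site windows of Coro1a, Lcp1 and Arhgdib had overlapping groups in all comparisons. Coro1a at chr7:126704501-126705500, a window with 38 CpGs, lay between 2.24% and 4.29% in all 10 mice. Lcp1 at chr14:75136001-75137000, over its more downstream start site, averaged 16.4% in saline and 16.6% in OVA-induced mice. Arhgdib at chr6:136941001-136942000 averaged 12.4% and 13.0%. At Arhgdib 2 of the 3 hypo methylated windows lay at a more downstream start site, in the run chr6:136938501-136940000 in intron 1, with means of 62.3%, 46.4% and 49.3% for saline, OVA-induced and DSE-treated mice. Coro1a had 1 hyper methylated promoter window, chr7:126703501-126704500 in intron 1, with means of 12.4% in saline and 22.04% in OVA-induced mice, which did not pass limma.

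Deeper in the long genes the differences went both ways. Lcp1, whose promoter was nearly unmethylated in every group, had 3 hypo methylated runs in intron 1 centred 40076 to 50576 bp from its more downstream start site, and all 9 of their windows also passed limma. The strongest, chr14:75186501-75187500, was at 83.9%, 80.3% and 88.4% in saline and at 58.2%, 66.0% and 60.8% in OVA-induced mice (-21.7 points, limma adjusted p = 0.0217), with 86 to 205 calls per mouse. Its DSE-treated mice were at 69.3%, 69.8%, 69.9% and 59.7%. Ptprc had further hypo methylated runs in intron 2 centred 29125 to 41125 bp from its nearer start site. From the farthest run to the nearest, 1 of 2, 1 of 4 and 0 of 2 of their windows passed limma in OVA vs. saline. There chr1:138133501-138134500 was at 75.6%, 83.1% and 70.9% in saline, 57.4%, 60.0% and 60.4% in OVA-induced and 46.5%, 55.1%, 58.1% and 47.2% in DSE-treated mice. The DSE-treated mice differed from saline by -24.6 points (limma adjusted p = 0.0115), the largest difference in DSE vs. saline. Inpp5d had hypo methylated runs in intron 2 centred 17189 to 38689 bp from the start site, with means of 64.7% to 68.1% in saline and 50.8% to 52.8% in OVA-induced mice. From the nearest run to the farthest, 1 of 1, 2 of 2 and 1 of 2 of their windows passed limma.

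**Figure D5:**
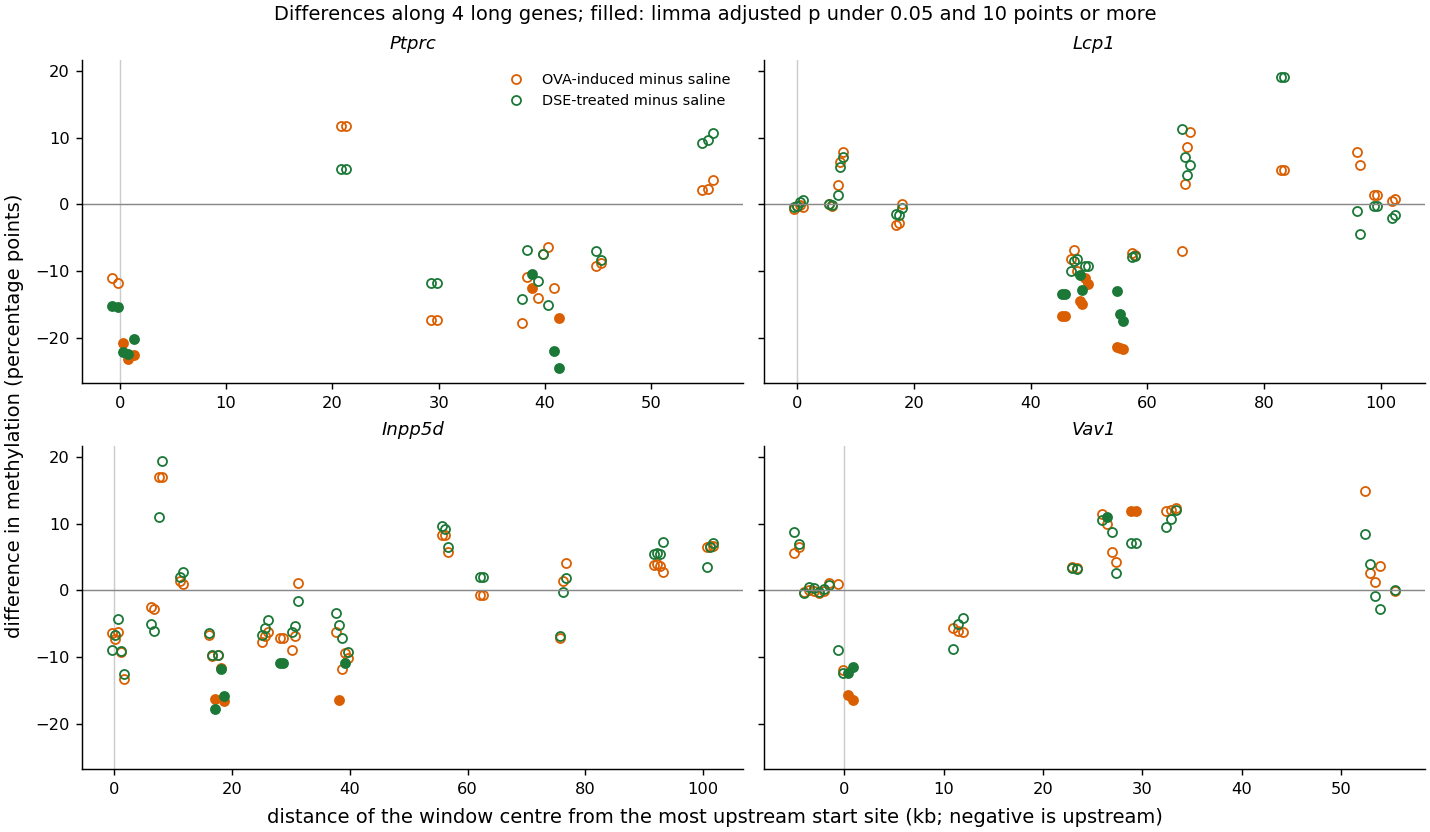
Difference in methylation in percentage points from saline (vertical axis) of OVA-induced and DSE-treated mice for windows of Ptprc, Lcp1, Inpp5d and Vav1, by distance of the window centre from the most upstream start site in kb (horizontal axis); filled points have a limma adjusted p under 0.05 and differ by 10 points or more. Windows below -10 points lie near the start in Ptprc and Vav1, and far inside Ptprc, Lcp1 and Inpp5d, while all windows of Vav1 from 25901 to 33401 bp lie above 0 in both comparisons.

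Vav1 went in the other direction in its distal part. It held 6 of the 8 hyper methylated windows of OVA vs. saline, in 3 runs centred 25901 to 33401 bp from the start site, between intron 16 and intron 24. In the run chr17:57307501-57309000 in intron 22, mean methylation was 54.1%, 66.3% and 61.6% for saline, OVA-induced and DSE-treated mice, and both windows passed limma in OVA vs. saline. No window of the runs chr17:57304501-57305500 and chr17:57311001-57313000 passed limma in that comparison. The calls of all Vav1 windows outside the promoter, added up, were at 29.5%, 30.2% and 29.4% in saline, at 33.3%, 34.6% and 35.6% in OVA-induced and at 32.6%, 37.9%, 34.6% and 33.3% in DSE-treated mice. Both other groups lay above saline (limma adjusted p = 0.0454 for OVA vs. saline and 0.0229 for DSE vs. saline).

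Summed in this way, the windows outside the promoters were lower in OVA vs. saline for 4 genes, Ptprc, Cd48, Coro1a and Lcp1, with differences of -9.29 to -3.16 points, and higher for Vav1, where 4.21% of all genes were lower and 9.25% higher. Ptprc was at 50.1%, 49.8% and 50.8% in saline and at 38.3%, 44.4% and 40.2% in OVA-induced mice (limma adjusted p = 0.0209). Cd48 was at 68.0%, 67.3% and 65.4% in saline and at 59.1%, 59.4% and 57.7% in OVA-induced mice (limma adjusted p = 0.00725). Cd48 was the gene that was called whichever mouse was left out, and between 1 and 5 genes were called in all. Without saline replicate 1 or OVA replicate 3, Cd48 was the only one. In DSE vs. saline Ptprc, Cd48 and Lcp1 were lower and Vav1 higher, where 5.8% of all genes were lower and 19.8% higher. Without any 1 of the saline mice, Cd48 and Lcp1 were called, and without DSE replicate 2 the Ptprc call was lost.

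In DSE vs. OVA the summed windows outside the promoters differed at 1 gene. Arhgdib was at 38.6%, 37.4% and 38.3% in saline, at 36.3%, 36.2% and 35.4% in OVA-induced and at 40.4%, 39.3%, 40.8% and 39.9% in DSE-treated mice. The DSE-treated mice lay above both other groups, by 4.13 points against OVA-induced (limma adjusted p = 0.0158; 7.08% of all genes were higher and 2.95% lower) and by 2.02 points against saline (limma adjusted p = 0.103). The call was lost without OVA replicate 3. The sum weights each window by its calls. Single windows in DSE vs. OVA had a median difference of 1.84 points for 5 in the gene and 1.93 points for 6 in the flanks. In DSE vs. saline the same medians were -0.743 and -2.58 points, so single windows did not show the higher sum. The DMRs of DSE vs. OVA were single windows at 4 genes. In Lcp1, chr14:75196501-75197500 in intron 1 was at 16.2%, 23.2% and 22.1% in saline, at 11.5%, 14.6% and 13.8% in OVA-induced and at 34.4%, 23.9%, 37.2% and 29.5% in DSE-treated mice. It was higher by 18.2 points in DSE vs. OVA and the 1 window of the 10 genes that passed limma in this comparison (limma adjusted p = 0.0328). A hyper methylated window beyond the 3′ end of Hcls1, chr16:36968001-36969000, overlaps the neighbouring gene Fbxo40. There OVA replicate 1 was at 43.9% and all other mice were at 71.3% or above, with as few as 22 calls in a mouse (limma adjusted p = 0.324). In Cd48, chr1:171675501-171676500 upstream of the gene differed by -12.5 points (limma adjusted p = 0.163), and in Hcls1, chr16:36945501-36946500 in intron 3 differed by -11.2 points with 28 to 55 calls per mouse (limma adjusted p = 0.307). At Inpp5d, chr1:87658001-87659000 in intron 2, a hypo methylated window of OVA vs. saline, was 11.3 points higher, with means of 69.1%, 52.7% and 63.7% for saline, OVA-induced and DSE-treated mice.

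In DSE vs. saline 2 more windows with separate groups had large differences. In Cd48, chr1:171686501-171687500 in intron 1 differed by -20.4 points, with 43.6%, 40.6%, 47.1% and 50.8% in the DSE-treated mice against 66.3%, 67.5% and 63.3% in saline (limma adjusted p = 0.0269). In Inpp5d, chr1:87628001-87629000 in intron 1 was 19.4 points higher, from 22 to 73 calls per mouse, with 45.5%, 31.4% and 54.8% in saline and 58.9%, 67.4%, 60.9% and 65.5% in DSE-treated mice (limma adjusted p = 0.071). The groups did not overlap at either window. Lcp1 also had hyper methylated windows against saline inside the gene. In DSE vs. saline the run chr14:75213501-75215000 around exon 11 was higher by a mean of 19.0 points, with 63.3% in saline and 84.4% in DSE-treated mice. In OVA vs. saline chr14:75198001-75199000 was higher by 10.8 points. No window of that run passed limma in DSE vs. saline, nor did the second window in OVA vs. saline.

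The promoter calls of OVA vs. saline depended on single mice. Hcls1 and Ptprc were called whichever mouse was left out. Without saline replicate 2 they were the only ones, and without OVA replicate 2 Vav1 was called with them. The mean difference over the 10 genes stayed between -11.2 and -9.21 points. The Vav1 difference also depended on the promoter taken: from 2000 bp upstream to 500 bp downstream of the start site it was -5.44 points and not called (limma adjusted p = 0.132). The Coro1a difference, which was not called, was -1.12 points instead of -5.07 with means of window percentages. For DSE vs. saline it was -1.0003 points instead of -3.74 with the promoter from 2000 bp upstream to 500 bp downstream. In DSE vs. saline the same 6 promoters were called whichever mouse was left out. Coro1a and Inpp5d were added without DSE replicate 1, and Arhgdib without DSE replicate 3.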

How the data were processed

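Methyl-seq libraries of lung DNA from 3 saline, 3 OVA-induced and 4 DSE-treated mice were analysed. The authors made SureSelect Methyl-seq capture libraries, and the deposited values are raw counts per mouse, not normalized: CpG calls, methylated and unmethylated, in 1000 bp windows placed every 500 bp. The submitters' processing notes name cutadapt 1.10, Bismark 0.19.0 and methylKit 1.0.0 with mm10. Neighbouring windows share calls. Per-mouse depth and precision are given with the results.

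The 10 genes and all gene lists were chosen with earlier results of these data known. The windows of a gene overlap its RefSeq span in GRCm38 extended by 5000 bp. Methylation is the percentage of methylated calls. A window needed 20 calls in a mouse and 2 such mice per group. Windows were tested on the compared groups by the likelihood ratio of logistic models without overdispersion, and by limma on M-values, log2 of (methylated + 1)/(unmethylated + 1), on the 421759 windows with 20 calls in all 10 mice. Promoters (windows overlapping 1000 bp on either side of an NM or NR start site of 45756 RefSeq transcripts) and all other windows of a gene were compared by limma on summed calls, all mice in 1 fit. Benjamini-Hochberg adjustment ran over all windows or genes, with thresholds of 0.01 (likelihood ratio), 0.05 (limma) and 10 points for windows, and 0.05 for genes. Single values had exact two-sided permutation tests over mice, not adjusted. Windows named are those nearest each start site, and per comparison up to 5 with the largest difference among DMRs without overlap of the groups; others, with runs of overlapping DMRs, were named after their values were seen. No 2 mice of a group were the same library: the chi-square of their calls averaged 2.65 to 3.76 per window, where 1 is expected from counting. Tests were checked on simulated calls. R 4.3.3, limma 3.58.1, Python 3.11.15, numpy 2.4.6, pandas 2.3.3 and scipy 1.17.1 were used. Alternatives were other coverage minimums, promoter widths, pseudocounts and difference limits, an F test with overdispersion, percentages in limma, windows that do not overlap, means of window percentages, no flanks, a replicate block and each mouse left out.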

Additional observations from a re-analysis of the deposited data

Results flagged for a closer look

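Among the 4 DSE-treated mice, 42 sets of values were examined for a mouse far from the other 3 by Dixon's test, the share of the range that separates a mouse from its neighbour. In 3 sets it was past the 95% critical value, and chance flags about 1 in 20. Promoter methylation of Coro1a was 26.0% in DSE replicate 1 and 20.9% to 21.2% in the others (share 0.9435). Summed methylation of Hcls1 outside the promoter was 68.9% in DSE replicate 1 and 74.9% to 75.7% in the others (0.8806). The Lcp1 window chr14:75186501-75187500 was at 59.7% in DSE replicate 4 and at 69.3% to 69.9% in the others (0.9358). Groups of 3 mice were not examined in this way.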

How the results depend on the processing

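The replicate numbers did not pair the mice: deviations of same-numbered mice correlated at -0.0273 to 0.0785, never above 0.1. With the number as a replicate block, 5 instead of 3 windows were hyper methylated in DSE vs. OVA, and the genes changed outside the promoter went from 5 to 3 in OVA vs. saline and from 1 to 0 for DSE vs. OVA. The block left 5 of 6 promoters called in OVA vs. saline, and other counts moved by less than 1.5 times. The reported counts of hyper and hypo methylated windows were 8 and 56 for OVA vs. saline, 3 and 2 for DSE vs. OVA, and 10 and 53 for DSE vs. saline. An F test with overdispersion left 0 of each (at an unadjusted p under 0.05, 6 and 49, 1 and 1, and 10 and 48). For the unadjusted counts the share over all windows was not counted. Limma left 2 and 32, 1 and 0, and 1 and 42. A limit of 20 points left 0 and 8, 0 and 0, and 0 and 6. Hypo methylated windows of DSE vs. OVA fell to 1 with a coverage minimum of 50 or without flanks. With each mouse left out in turn, hyper methylated windows numbered 4 to 10, 1 to 5, and 5 to 14, and hypo methylated ones 50 to 66, 1 to 4, and 50 to 66, in the same order of comparisons. The fewest hyper methylated windows came without saline replicate 2 in OVA vs. saline (4), without OVA replicate 1 in DSE vs. OVA (1) and without saline replicate 1 or 2 in DSE vs. saline (5). Promoters called numbered 2 to 6 for OVA vs. saline, 0 for DSE vs. OVA and 6 to 8 for DSE vs. saline, and genes called outside the promoter 1 to 5, 0 to 1 and 2 to 4. The cause of these changes was not tested.

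Among single promoters, no difference in OVA vs. saline or DSE vs. saline that was called as reported changed sign. The Lcp1 difference in OVA vs. saline (-0.0828 points) ran from -0.759 to 0.299 with each mouse left out. In DSE vs. OVA, where no promoter was called, means of window percentages gave 2.19 for Laptm5, -1.18 for Coro1a, -0.138 for Vav1, -0.212 for Arhgdib and -0.142 for Inpp5d. A promoter from 2000 bp upstream to 500 bp downstream gave -0.0750 for Cd48, 1.58 for Cd53 and -0.185 for Vav1, and 500 bp either side or windows that do not overlap also gave 1.58 for Cd53. Leaving out each mouse gave -0.731 to 2.55 for Cd48, -2.51 to 1.27 for Cd53, -2.76 to 1.67 for Laptm5, -1.10 to 3.73 for Vav1, -0.801 to 2.06 for Arhgdib and -2.05 to 2.29 for Inpp5d. With the 2000 bp promoter Vav1 was no longer called in OVA vs. saline (-5.44 points, limma adjusted p = 0.132) or DSE vs. saline (-5.63 points). With means of window percentages Cd53 was not called in OVA vs. saline (limma adjusted p = 0.0523) and Arhgdib was (limma adjusted p = 0.036). At 20 calls a level of 50% has an interval of 29.9% to 70.1%, so thinly covered windows limit what could be seen.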

Other observations

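Over all promoters of the 10 genes, the saline mice were alike, with means of 43.8%, 44.1% and 43.4%, whereas the OVA-induced mice averaged 36.1%, 33.0% and 32.2% and the DSE-treated mice 35.9%, 32.9%, 35.7% and 32.9%. Outside the promoters the mean over the 10 genes was 45.7% ± 0.450 for saline, 43.2% ± 0.781 for OVA-induced and 43.3% ± 0.997 for DSE-treated mice (SD, n = 3, 3 and 4), while the mean over all genes was 50.1%, 51.2% and 51.5%. Outside the promoters the 30 further leukocyte genes did not share the lower level of the 10 genes as a list. In OVA vs. saline 6 were lower and 2 higher by limma, and 13 had differences below 0. Their median difference was 1.18 points, against -2.22 over the 10 genes and 0.967 over all genes. Of the 14 endothelial genes 7 were higher and 1 lower, with a median difference of 5.27 points. Over all genes 9.25% were higher and 4.21% lower. Among mesenchymal promoters, Tagln, a smooth muscle actin-binding protein, differed by 10.7 points in OVA vs. saline (limma adjusted p = 0.0135) and by 11.99 points in DSE vs. saline (limma adjusted p = 0.00195). Tagln was chosen after its values were seen.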
